A study of Homo sapiens with 56 samples.

Results

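The average transcriptional effect of 2-methylisocitrate (2-MiCit) was measured over 4 established human colorectal cancer cell lines, HCT116, DLD1, LoVo and SW948, as the equally weighted mean of the 4 effects within each line. It used every library of one deposited count table, 32 of the 56 libraries in the series; the other 24 are from HT29, SKCO1 and SW1417. Each line was given 10 mM 2-MiCit or its vehicle, water, in complete medium in 6-well plates, with 4 libraries in each of the 8 groups. The labels give the lines as wild-type and name no other agent. How long the cells were treated, and whether the libraries of a group are independent cultures, is not stated in the labels. The p-values therefore cover the variation among these libraries only, and that variation may be technical. The study concerned a bacterial metabolite in colorectal cancer, and the comparison asks which genes respond to it in the same way in every line and how far HCT116 alone carries the average.

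2-MiCit is an intermediate of the methylcitrate cycle, by which bacteria and fungi break down propionate, a short-chain fatty acid made in quantity by the gut microbiota. In that cycle propionyl-CoA is joined to oxaloacetate to give 2-methylcitrate, which is rearranged to 2-MiCit and then split into pyruvate and succinate. Human cells have no such cycle and convert propionyl-CoA to succinyl-CoA through methylmalonyl-CoA. 2-MiCit resembles isocitrate, a substrate of the tricarboxylic acid cycle.

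Library totals ran from 13.8 to 19.4 M counts, and 15800 genes were tested. Markers of colon epithelium summed to between 4722 and 13900 CPM (counts scaled to the library's total for these sums, and to its TMM-scaled total for single genes below) in every library, with 12 of 13 markers in the table. In HCT116 the sum was 6585 to 7513 CPM with 2-MiCit against 4722 to 5235 CPM in its controls, and the part of this shift in the results below was not tested. The sum of neural markers (5 of 9 in the table) was 94.8 to 112 CPM with 2-MiCit against 133 to 147 CPM in controls of HCT116, and 79.6 to 91.0 CPM against 94.6 to 119 CPM in DLD1, and its part in the results was not tested either. In LoVo and SW948 the neural sums overlapped, at no more than 17.7 CPM. Fibroblast markers (4 of 10 in the table) summed to at most 22.9 CPM and endothelial ones (4 of 9) to at most 10.2 CPM. The leukocyte list, 3 of 12 markers in the table, stayed at or below 3.39 CPM in the other lines but summed to 883 to 1121 CPM with 2-MiCit and 925 to 1104 CPM in controls of SW948. A pair of libraries stood apart from their groups: DLD1 control replicate 1, whose mean correlation with its group was 0.9520, and SW948 2-MiCit replicate 2, at 0.9606. The main counts, and list counts that moved by over 1.5 times without these libraries, are given below with and without them.

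Some genes moved in the same direction in every line and were called in the 4-line mean. Ranked by the line that moved least, the genes that rose were RAB3B, OR2M3, AKR1C1, AKR1C3, LONRF1, PINK1, PNRC1 and TGFB1I1, and those that fell included DHRS2, POGLUT2, PTBP2, TFRC, SFR1, PAICS and ZNF503. The promoters of 4 of these genes are shown because they are the start sites of genes with one direction of change in all 4 lines, 2 that rose and 2 that fell. They are RefSeq sequences of GRCh38.p14, from 250 bases before to 50 bases after the gene's start, read 5′ to 3′ on the gene's strand, and the capitals mark a match to the AP-1 motif TGAGTCA.
RAB3B, rose, chr1:51990651-51990950, minus strand: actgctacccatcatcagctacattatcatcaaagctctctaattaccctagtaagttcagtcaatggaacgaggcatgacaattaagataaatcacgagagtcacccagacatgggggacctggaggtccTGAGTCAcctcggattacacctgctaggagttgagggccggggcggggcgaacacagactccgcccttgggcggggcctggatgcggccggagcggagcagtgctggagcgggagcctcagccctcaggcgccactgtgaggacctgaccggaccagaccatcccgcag
PNRC1, rose, chr6:89080501-89080800, plus strand: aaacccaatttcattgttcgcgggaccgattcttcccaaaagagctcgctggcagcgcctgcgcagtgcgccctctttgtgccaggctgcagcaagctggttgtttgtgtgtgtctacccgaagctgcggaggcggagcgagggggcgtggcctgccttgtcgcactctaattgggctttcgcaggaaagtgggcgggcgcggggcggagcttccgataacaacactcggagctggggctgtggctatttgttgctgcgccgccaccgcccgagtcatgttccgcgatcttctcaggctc
PTBP2, fell, chr1:96722388-96722687, plus strand: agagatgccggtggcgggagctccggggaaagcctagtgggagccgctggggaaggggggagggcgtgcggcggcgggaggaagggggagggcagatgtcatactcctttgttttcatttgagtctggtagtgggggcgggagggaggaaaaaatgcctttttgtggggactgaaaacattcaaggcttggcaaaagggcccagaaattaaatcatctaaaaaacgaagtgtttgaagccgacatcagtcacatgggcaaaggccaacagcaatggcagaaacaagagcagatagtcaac
TFRC, fell, chr3:196082041-196082340, minus strand: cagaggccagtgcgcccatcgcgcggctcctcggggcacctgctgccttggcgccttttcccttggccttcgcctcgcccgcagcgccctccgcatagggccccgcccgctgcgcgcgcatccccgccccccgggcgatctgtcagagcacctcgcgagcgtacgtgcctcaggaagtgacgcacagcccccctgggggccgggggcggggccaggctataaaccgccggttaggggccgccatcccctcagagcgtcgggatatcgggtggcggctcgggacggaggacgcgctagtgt
These motifs were searched on both strands in the 8 genes of this ranking that matched a promoter entry: the E-box CACGTG, the ATF4 composite site TGATGCAA, the FOXO site GTAAACA, the AP-1 site TGAGTCA, the D-box TTATGCAA and the nuclear receptor site AGGTCA. The AP-1 match in RAB3B, which begins 119 bases before the start on the gene's strand (position -119), was the only one. Over all 35116 promoters of this length, the shares holding each motif in that order were 7.26%, 0.866%, 3.42%, 4.95%, 0.846% and 13.8%.

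In the 4-line mean, 2807 of the 15800 genes were called, 17.8% of those tested, with edgeR's quasi-likelihood test at a Benjamini-Hochberg adjusted p below 0.05. Of these, 1547 were higher with 2-MiCit, 9.79% of all tested, and 1260 were lower, 7.97%. The changes were small: the median absolute log2 fold change of a called gene was 0.19, and 12 higher and 4 lower genes passed 2-fold. Each adjusted p below comes from this test, adjusted over all tested genes. With both libraries that stood apart left out, 1807 genes were higher and 1957 lower, and 2704 of the 2807 remained called. The share of higher genes among those called was 55.1% with all libraries, 48.0% without the 2 libraries and 45.1% after a trend with transcript length was removed. Among the tested genes, 1272 had no read in any library of at least 1 line, and 1325 had none in at least 1 of the 8 groups. Of these 1325 genes 8 were called in the mean, and a fitted effect in a line without reads carries no information on that line.

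One sign in all 4 lines was found for 953 of the 2807 called genes, 34.0%, against 11.9% of all tested genes. The higher genes with a positive effect in every line numbered 542, 35.0% of those called higher, and 7.09% of all tested genes were positive in every line. The lower genes with a negative effect in every line numbered 411, 32.6% of those called lower, against 4.86% of all tested genes. The call and the sign come from the same libraries, so the excess over all genes is a description and no test. Without the 2 libraries that stood apart, 1519 of 3764 called genes had one sign, 40.4% against 17.0% of all tested genes. Of the 1708 called genes in which a single line went the other way, SW948 was that line in 1374, 80.4%, DLD1 in 224, LoVo in 94 and HCT116 in 16. SW948 was again the odd line in 79.5% of such genes without the 2 libraries.

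PINK1, the mitochondrial kinase that marks damaged mitochondria for removal, rose in the mean by 0.50 ± 0.05 (SE) on the log2 scale, a 1.41-fold change (adjusted p = 1.33e-08). In HCT116 it had 46.4, 43.1, 45.9 and 39.6 CPM with 2-MiCit against 26.5, 28.6, 28.3 and 25.8 CPM in controls. In LoVo it had 34.0, 33.4, 34.0 and 32.1 CPM with 2-MiCit against 20.9, 19.6, 22.1 and 26.7 CPM in controls. No treated library of either line overlapped a control. DLD1 libraries did not overlap either, at 35.9 to 44.9 CPM with 2-MiCit and 27.7 to 33.9 CPM in controls. In SW948 the groups touched, with 19.9 to 27.8 CPM with 2-MiCit and 17.2 to 20.0 CPM in controls. The effect was 0.68 in HCT116, 0.39 in DLD1, 0.58 in LoVo and 0.35 in SW948, and the mean of the other 3 lines without HCT116 was 0.44 (adjusted p = 1.75e-05). PINK1 lies at chr1:20633455-20651511 in GRCh38.

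PNRC1, a nuclear receptor coregulator, was one of the genes with no overlap between groups in any line. It averaged 15.1 ± 1.84 CPM with 2-MiCit and 8.08 ± 1.69 CPM in controls of HCT116 (SD, n = 4 each). The same values were 18.0 ± 2.42 and 11.5 ± 1.43 CPM in DLD1, 22.0 ± 1.64 and 15.0 ± 0.747 CPM in LoVo, and 14.9 ± 1.93 and 11.8 ± 0.798 CPM in SW948, each time with 2-MiCit first. The 4-line mean was 0.61 ± 0.06 (adjusted p = 7.22e-08). KLHL24, a substrate adaptor of a ubiquitin ligase, rose by 0.75 ± 0.07, or 1.68-fold (adjusted p = 5.31e-09), but unevenly. Its treated libraries had 11.5 to 14.0 CPM in HCT116 against 4.00 to 5.93 CPM in controls, and 8.74 to 11.1 CPM in DLD1 against 3.41 to 5.76 CPM. LoVo had 15.1 to 16.7 CPM with 2-MiCit against 10.2 to 11.8 CPM in controls, and in SW948 the groups overlapped, at 13.8 to 20.5 CPM with 2-MiCit and 14.5 to 17.7 CPM in controls. The adjusted p that the 4 KLHL24 effects differ was 1.55e-04. KLHL24 lies at chr3:183635568-183684477 and PNRC1 at chr6:89080751-89085160 in GRCh38.

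RAB3B, a small GTPase of vesicle exocytosis, had nearly equal effects at very different levels. Its effects were 0.52 in HCT116, 0.48 in DLD1, 0.44 in LoVo and 0.64 in SW948, with a mean of 0.52 ± 0.10 (adjusted p = 2.76e-04). Treated libraries had 90.9 to 126 CPM in HCT116 against 56.2 to 89.6 CPM in controls. SW948 held 0.803 to 1.30 CPM with 2-MiCit and 0.382 to 0.884 CPM in controls, so its effect there rests on few reads and the groups overlap. Of the other genes in this ranking, AKR1C1 (0.70) and AKR1C3 (0.71), aldo-keto reductases of steroid and carbonyl reduction, have near-identical relatives between which the counts may be split. AKR1C1 had at most 0.876 CPM in HCT116 and 0.393 CPM in DLD1, and AKR1C3 at most 0.752 and 0.393 CPM. The effects of both genes in these lines therefore rest on few reads, and in DLD1 the groups overlap. AKR1C1 was no longer called without DLD1 2-MiCit replicate 3 (adjusted p = 0.213). LONRF1, a LON-domain RING protein, rose by 0.63 ± 0.16 and TGFB1I1, a focal adhesion protein, by 0.40 ± 0.07.

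Among the genes that fell in every line, PAICS, an enzyme of purine synthesis, averaged 513 ± 15.7 CPM with 2-MiCit and 666 ± 37.9 CPM in controls of HCT116, and 416 ± 38.9 and 461 ± 9.75 CPM in SW948 (SD, n = 4 each). In SW948 the 2-MiCit libraries had 445, 363, 412 and 444 CPM against 452 to 470 CPM in controls, the value of 363 CPM being that of the library that stood apart. The mean effect of PAICS was -0.21 ± 0.03 (adjusted p = 5.02e-06), and the groups overlapped in LoVo alone. PTBP2, a splicing regulator, fell by 0.26 on the log2 scale, with effects of -0.18 in HCT116, -0.19 in DLD1, -0.35 in LoVo and -0.34 in SW948. TFRC, the transferrin receptor through which cells take up iron, fell by 0.26 on the log2 scale (adjusted p = 0.0128), but its groups overlapped in all lines except LoVo. In SW948 it had 736, 457, 807 and 701 CPM with 2-MiCit against 775, 793, 755 and 779 CPM in controls, the value of 457 CPM being that of the library that stood apart. Without both libraries that stood apart its SW948 effect was -0.06, against -0.20 with them, and its 4-line mean was -0.27 (adjusted p = 3.57e-05).

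**Figure D1:**
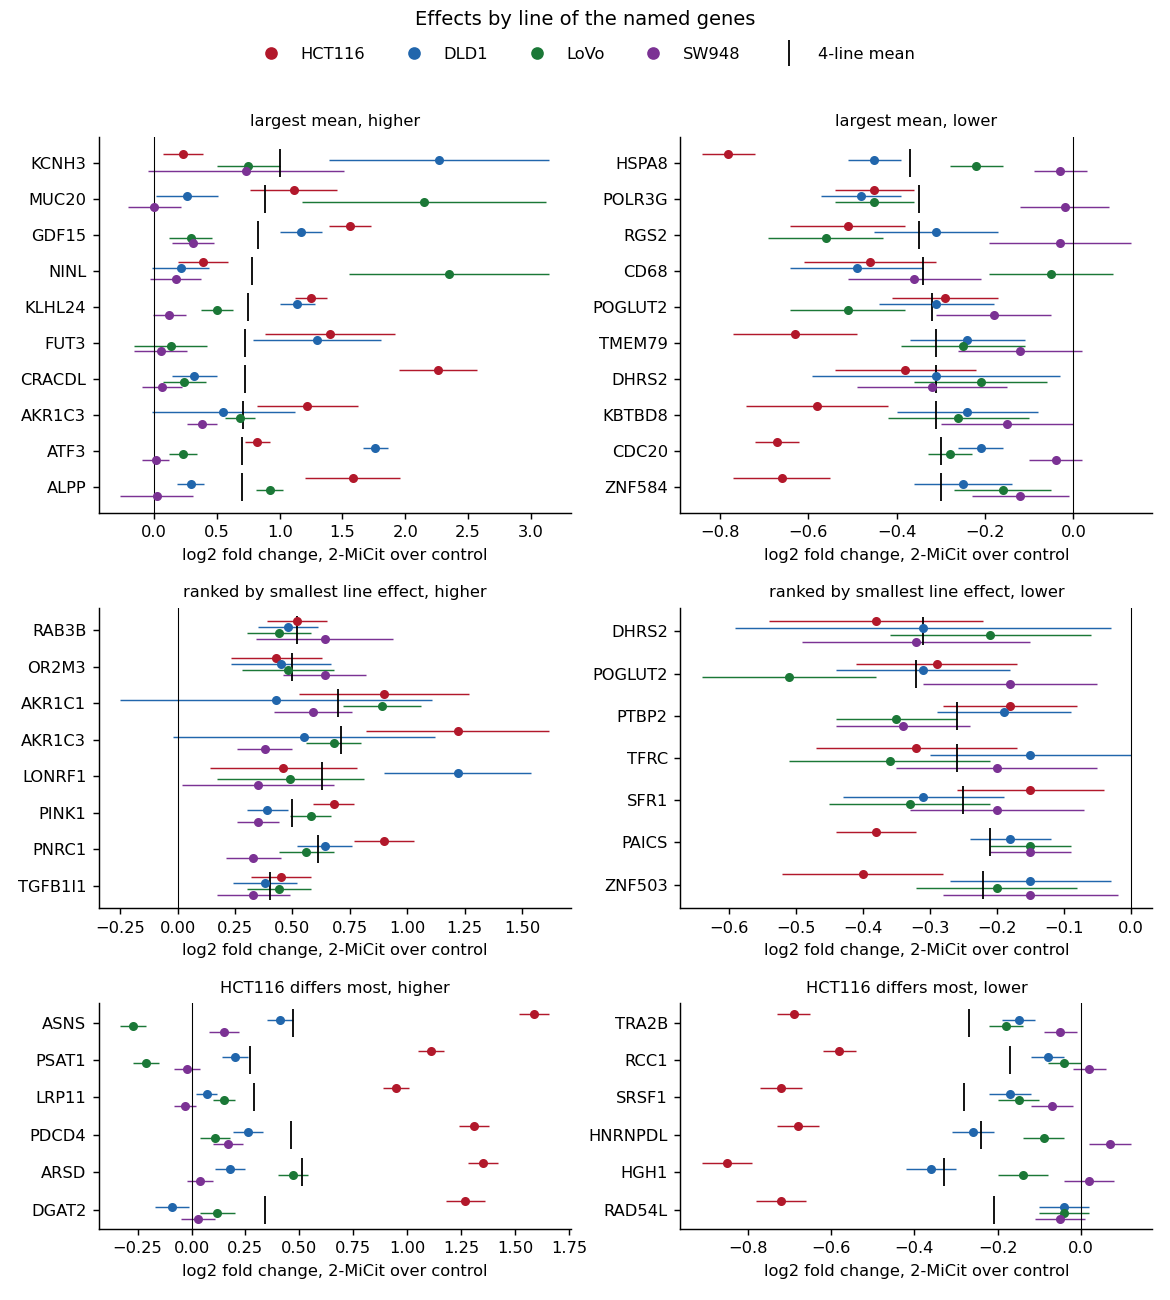
Log2 fold change (2-MiCit over control, x axis) by line, as points with SE bars and a black tick for the 4-line mean, in 6 panels: the 10 higher and 10 lower one-sign genes of largest mean, those ranked by smallest line effect, and the 6 higher and 6 lower in which HCT116 differed most. The 4 points of RAB3B lie between 0.44 and 0.64, whereas ASNS has 1.59 in HCT116 and -0.27 in LoVo.

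The largest one-sign increases in the mean included stress-induced genes. GDF15, a secreted stress cytokine, rose by 0.83 ± 0.08, or 1.78-fold (adjusted p = 6.13e-08). It had 162, 155, 180 and 120 CPM with 2-MiCit in HCT116 against 57.9, 50.9, 58.4 and 42.0 CPM in controls. In DLD1 it had 783, 650, 783 and 540 CPM with 2-MiCit against 468, 266, 249 and 241 CPM in controls, the highest control being the library that stood apart. SW948 groups did not overlap, at 145 to 165 CPM with 2-MiCit and 108 to 138 CPM in controls, and LoVo groups did. ATF3, a stress-induced transcription factor, rose by 0.70 ± 0.05 (adjusted p = 2.87e-10), and DLD1 moved most: 72.6, 65.6, 67.4 and 56.9 CPM with 2-MiCit against 17.5, 21.1, 19.6 and 19.4 CPM in controls. The ATF3 effect was 1.76 in DLD1, 0.82 in HCT116, 0.23 in LoVo and 0.01 in SW948. KCNH3, a potassium channel gene, had the highest mean effect by rule (1.00, adjusted p = 0.0364), but it had at most 0.289 CPM in any DLD1 or SW948 library and was not called without SW948 2-MiCit replicate 2 (0.58, adjusted p = 0.490). MUC20 (0.88) and NINL (0.78) each had a LoVo effect above 2 and were not called without HCT116 (adjusted p = 0.252 and 0.157). In LoVo no library had more than 0.218 CPM of MUC20 or 0.206 CPM of NINL, so these LoVo effects rest on few reads.

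Among genes of at least 5 CPM, the largest one-sign decrease was that of HSPA8, the constitutive cytosolic HSP70 chaperone (chr11:123057489-123063230), which fell by 0.37 ± 0.03 on the log2 scale (adjusted p = 3.03e-10). It had 1790, 1756, 1796 and 1697 CPM with 2-MiCit in HCT116 against 2982, 3184, 2919 and 2983 CPM in controls. DLD1 had 2532 to 2827 CPM with 2-MiCit against 3417 to 3941 CPM in controls, and LoVo 2505 to 2814 CPM against 2891 to 3214 CPM. These 3 lines had no overlap, whereas SW948 had 2335 to 2523 CPM with 2-MiCit and 2402 to 2553 CPM in controls. CDC20, the activator of the anaphase-promoting complex, fell by 0.30 on the log2 scale (adjusted p = 1.25e-08), with effects of -0.67 in HCT116, -0.21 in DLD1, -0.28 in LoVo and -0.04 in SW948. POLR3G, a subunit of RNA polymerase III, fell by 0.35 on the log2 scale, with effects near -0.45 in HCT116 and LoVo, -0.48 in DLD1 and -0.02 in SW948.

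**Figure D2:**
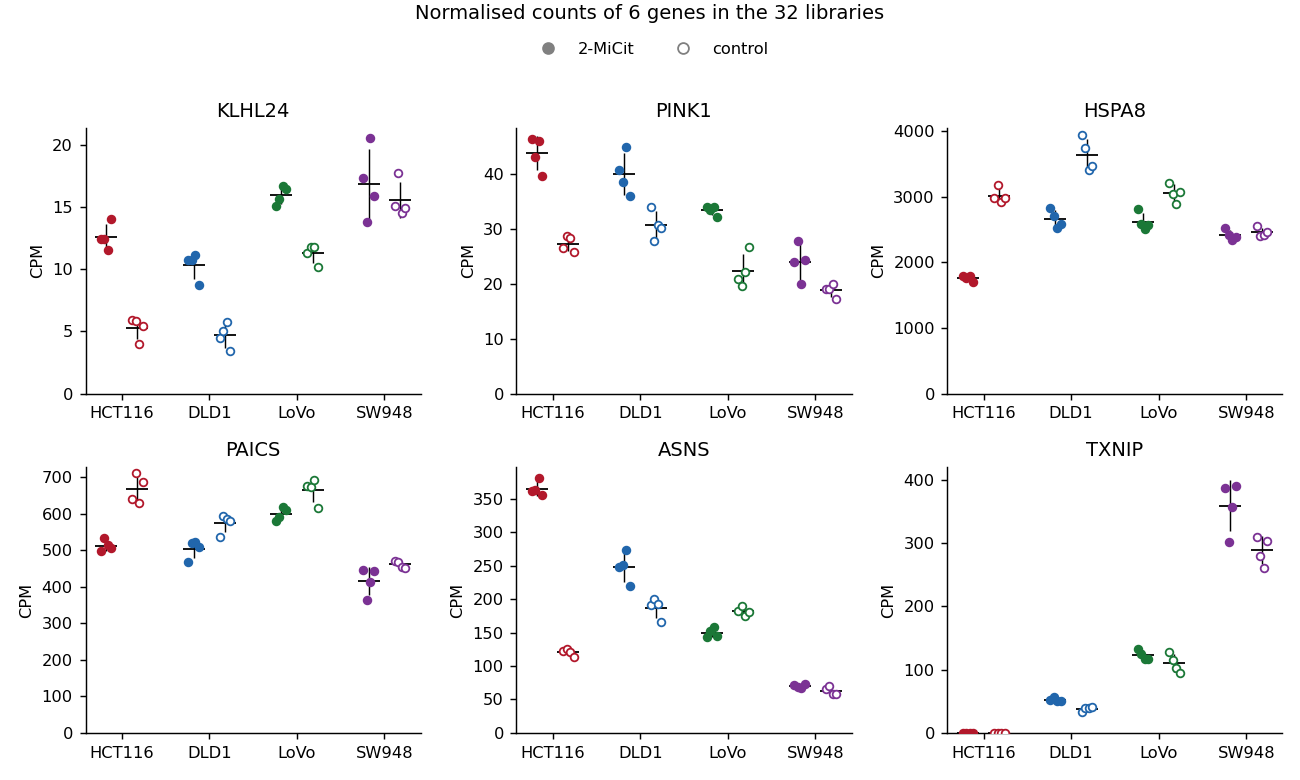
CPM (y axis) of KLHL24, PINK1, HSPA8, PAICS, ASNS and TXNIP in each of the 32 libraries by line, with 2-MiCit as filled points to the left of the open control points and the mean with SD as bars. PINK1 separates the groups in 3 lines, HSPA8 shows no separation in SW948, ASNS falls in LoVo while it rises in HCT116, and TXNIP is at 0 in every HCT116 library.

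HCT116 carried most of the calls in the mean. With HCT116 left out, the mean over DLD1, LoVo and SW948 had 432 called genes, 2.73% of those tested, of which 255 were higher (1.61%) and 177 lower (1.12%). These counts depended on single libraries and on the tool. Leaving out 1 library gave from 135 higher genes without LoVo 2-MiCit replicate 1 to 289 without SW948 2-MiCit replicate 2, and from 100 lower genes without DLD1 2-MiCit replicate 1 to 355 without SW948 2-MiCit replicate 2. The 24 libraries fitted without those of HCT116 gave 179 higher and 93 lower genes, and voom with library weights gave 656 and 604. The 2 means share 24 libraries. Of the 2807 genes called in the 4-line mean, 412 remained called without HCT116 (14.7%), 2395 did not (85.3%), and 43 had the opposite sign. By comparison, 65.3% remained called without DLD1, 73.2% without LoVo and 96.3% without SW948. These means called 2209 genes (14.0%), 2258 genes (14.3%) and 4723 genes (29.9%), so the mean called more genes once SW948 was left out. Without the 2 libraries that stood apart, the mean without HCT116 had 325 higher and 339 lower genes, and 634 of 3764 genes (16.8%) remained called when HCT116 was also left out.

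**Figure D3:**
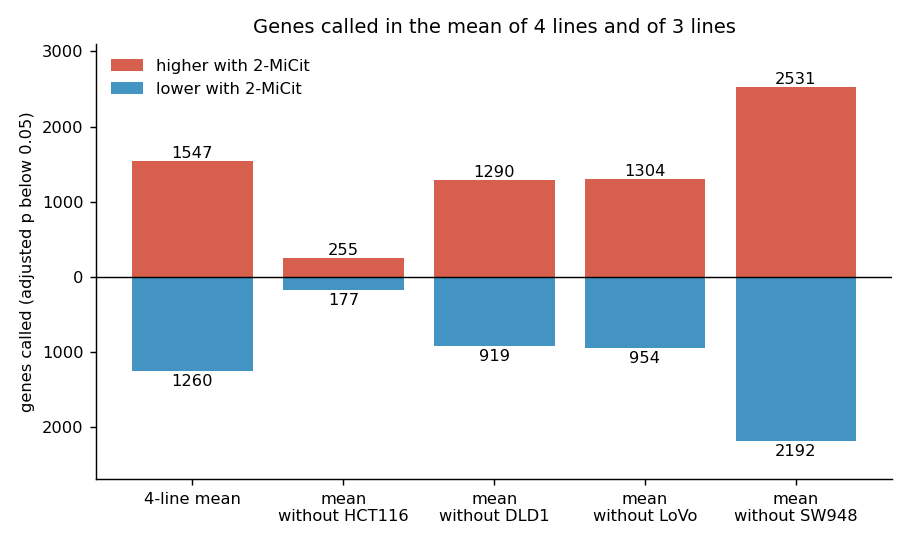
Number of genes called at an adjusted p below 0.05 (y axis), higher with 2-MiCit as bars above 0 and lower as bars below it, in the 4-line mean and in each mean that leaves out one line. The counts are 255 higher and 177 lower without HCT116, against 2531 and 2192 without SW948 and 1547 and 1260 with all 4 lines.

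By line, HCT116 had 4035 called genes (25.5% of those tested), 2322 higher (14.7%) and 1713 lower (10.8%). DLD1 had 1352 (8.56%), 733 higher (4.64%) and 619 lower (3.92%), but 20 higher and 0 lower when its 8 libraries were fitted by themselves (1227 and 1171 at an unadjusted p below 0.05). LoVo had 202 (1.28%), 120 higher (0.759%) and 82 lower (0.519%), and SW948 had 2 higher (0.0127%) and 0 lower. The 2 genes called in SW948 are pseudogenes by name, ZBED10P (0.44) and NBEAP2 (6.50), which reads of their parent genes could reach. NBEAP2 averaged 0.706 CPM over all libraries, so its effect, with an SE of 1.12, rests on few reads. Both genes are named after their values were seen. SW948 had 4 called genes without the 2 libraries that stood apart, DLD1 then had 474 higher and 376 lower genes, and LoVo 340 and 314. Over the 11462 genes of at least 5 CPM, the SD of the effects was 0.37 in HCT116, 0.31 in DLD1, 0.23 in LoVo and 0.27 in SW948, with a median SE of 0.11 in each. That SE comes from a spread which the fit shares among the lines, so it does not show that they were equally precise. In fits of single lines, edgeR's coefficient of variation among libraries was 0.122 in HCT116, 0.183 in DLD1, 0.110 in LoVo and 0.159 in SW948. No gene was called in all 4 lines, and 53 were called in one direction in 3 lines, 22 higher and 31 lower, always HCT116, DLD1 and LoVo.

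The share of the 4-line sum that came from HCT116 had a median of 52.2% over the 2807 called genes (interquartile range 39.8% to 64.6%), against 47.1% over all tested genes, where equal effects would give 25%. HCT116 supplied more than the other lines together in 1547 of them (55.1%), against 47.0% of all tested genes, so both shares lay near those of all genes. It had the largest effect of the 4 lines in 73.1% of called genes, against 40.6% of all tested genes. The median shares of the other lines were 26.5% for DLD1, 22.7% for LoVo and -1.42% for SW948. Over the 432 genes called without HCT116 the median HCT116 share was 37.6%.

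HCT116 moved mostly in the direction of the other lines. Of the 432 genes called in the mean of the other 3 lines, 393 had the same sign in HCT116 (91.0%, against 63.7% of all tested genes), and 302 were called in HCT116 in that direction (69.9%, against 20.4% of all tested genes). The calls come from one fit of 32 libraries, so HCT116 shared in the estimate of the spread and in the filter behind the 432 calls. The same share of sign with the mean of the other 3 lines was 84.2% for LoVo (65.3% of all genes), 71.3% for DLD1 (54.7%) and 28.5% for SW948 (34.8%). Without the 2 libraries that stood apart it was 90.8%, 83.5%, 80.4% and 39.7% for HCT116, LoVo, DLD1 and SW948. The shares of all tested genes were then 63.9%, 64.4%, 60.9% and 41.4% in that order, so that of SW948 lay near its share of all genes. In the reverse direction, 76.5% of the genes called higher in HCT116 had a positive mean in the other lines (52.1% of all tested genes did), where the median effect was 0.08 against 0.50 in HCT116. For genes lower in HCT116, 84.4% had a negative mean in the other lines (47.9% of all tested genes did), with a median of -0.07 against -0.35 in HCT116.

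**Figure D4:**
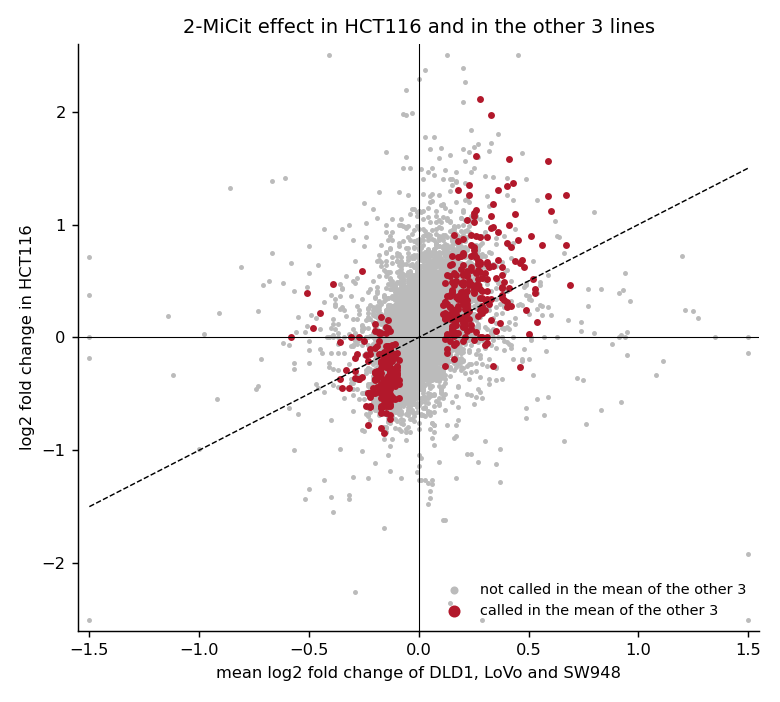
Log2 fold change in HCT116 (y axis) against the mean of DLD1, LoVo and SW948 (x axis) for genes of at least 5 CPM, with genes called in the mean of those 3 lines in red, points beyond 1.5 on the x axis or 2.5 on the y axis drawn at the edge and a dashed line of equality. Of the 432 genes called in that mean, some of them under 5 CPM, 91.0% had the same sign in HCT116, and most red points lie in the 2 quadrants of equal sign.

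As a description across genes, which are not independent and share each line's libraries, the effects correlated at 0.31 between HCT116 and DLD1, 0.36 between HCT116 and LoVo and 0.35 between DLD1 and LoVo. The correlation with SW948 was -0.15 for HCT116, -0.38 for DLD1 and -0.17 for LoVo. Without the 2 libraries that stood apart these were -0.04, -0.03 and -0.09. The negative correlation of DLD1 with SW948 therefore depended on those libraries.

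The difference between HCT116 and the mean of the other 3 lines was called for 1987 genes (12.6% of those tested), 1160 higher (7.34%) and 827 lower (5.23%) in HCT116. The same test called 2659 genes for SW948 (16.8%), 327 for DLD1 (2.07%) and 55 for LoVo (0.348%). Without the 2 libraries, the count for SW948 was 1279, that for HCT116 3035 and that for LoVo 128, so the order of SW948 and HCT116 turned round. Any difference among the 4 lines was called for 2837 genes (18.0%), of which 1558 were among the 2807 genes called in the mean.

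The genes that set HCT116 apart most strongly upwards were ASNS, PSAT1, LRP11, PDCD4, ARSD and DGAT2. ASNS, which makes asparagine and lies at chr7:97852118-97872542, had 361, 363, 381 and 355 CPM with 2-MiCit in HCT116 against 122, 126, 121 and 114 CPM in controls. DLD1 rose less, with 219 to 274 CPM with 2-MiCit against 165 to 200 CPM in controls. LoVo moved the other way, with 143 to 158 CPM with 2-MiCit against 174 to 189 CPM in controls, and neither line's groups overlapped. SW948 had 67.1 to 72.6 CPM with 2-MiCit and 58.4 to 69.7 CPM in controls. The ASNS effect was 1.59 in HCT116, 0.41 in DLD1, -0.27 in LoVo and 0.15 in SW948, and HCT116 differed from the mean of the others, 0.09, with an adjusted p of 9.75e-14. The 4-line mean of ASNS was 0.47 (adjusted p = 1.83e-10), 85.0% of it from HCT116, and that mean without HCT116 was not called (adjusted p = 0.219).

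PSAT1, of serine synthesis, averaged 394 ± 12.8 CPM with 2-MiCit and 183 ± 9.70 CPM in controls of HCT116 (SD, n = 4 each). DLD1 rose as well, with 392 ± 26.0 CPM with 2-MiCit and 342 ± 24.2 CPM in controls, without overlap. In LoVo PSAT1 fell, with 210 ± 3.82 CPM with 2-MiCit and 244 ± 12.6 CPM in controls, also without overlap. In SW948 the groups overlapped. Its HCT116 share of the mean was 104%. Without HCT116 the mean, which joins the opposite effects of DLD1 and LoVo, was -0.01 (adjusted p = 0.980). PDCD4, an inhibitor of translation, rose by 1.31 in HCT116 and by 0.18 in the mean of the other lines (adjusted p = 0.0102). ARSD, an arylsulfatase, rose by 1.35 in HCT116 and by 0.23 in the others (adjusted p = 8.42e-04). DGAT2, of triglyceride synthesis, had an effect of 1.27 in HCT116 and 0.02 in the others (adjusted p = 0.940).

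Downwards, HCT116 stood apart most for TRA2B, RCC1, SRSF1, HNRNPDL, HGH1 and RAD54L. TRA2B, a splicing activator, had 157, 149, 151 and 146 CPM with 2-MiCit in HCT116 against 252, 248, 238 and 235 CPM in controls. DLD1 averaged 214 ± 5.58 and 238 ± 10.4 CPM and LoVo 229 ± 2.39 and 260 ± 6.73 CPM, with 2-MiCit first, and neither overlapped. The effect was -0.69 in HCT116 and -0.13 in the mean of the others (adjusted p = 0.00237), and HCT116 gave 64.1% of the 4-line mean. SRSF1 and HNRNPDL are also RNA-binding splicing factors, with HCT116 effects of -0.72 and -0.68. RCC1, the nuclear exchange factor of the GTPase Ran, fell by 0.58 on the log2 scale in HCT116 and had -0.03 in the others (adjusted p = 0.617). RAD54L, a helicase of homologous recombination, fell by 0.72 in HCT116 and had -0.04 in the others (adjusted p = 0.711).

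A few genes were called without HCT116 while HCT116 moved the other way, hardly moved or had none of the transcript. TXNIP, at chr1:145992435-145996600, is an inhibitor of thioredoxin and of glucose uptake. It had 0 counts in all 8 HCT116 libraries, which allows up to 0.147 to 0.200 CPM per library at 3 counts. DLD1 had 52.3, 57.1, 50.6 and 50.5 CPM of TXNIP with 2-MiCit against 32.7, 39.1, 38.9 and 40.6 CPM in controls, without overlap. LoVo had 116 to 133 CPM with 2-MiCit and 95.4 to 128 CPM in controls, and SW948 302 to 390 CPM and 261 to 310 CPM, both with overlap. The mean of the 3 lines that express TXNIP was 0.31 (adjusted p = 0.00294), and in HT29, SKCO1 and SW1417 it was 0.61 (adjusted p = 1.56e-08).

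SGK1, a serine-threonine kinase, had 3.38 to 4.53 CPM with 2-MiCit in HCT116 against 2.40 to 3.26 CPM in controls, and in LoVo 1.78 to 2.62 CPM against 2.99 to 4.24 CPM. The groups of these lines did not overlap and moved in opposite directions. The mean without HCT116 was -0.39 (adjusted p = 0.00956) and the 4-line mean -0.18 (adjusted p = 0.0986). VSNL1, a neuronal calcium sensor, averaged 8.52 ± 0.764 and 5.62 ± 0.631 CPM in HCT116 and 48.5 ± 1.37 and 59.7 ± 2.26 CPM in LoVo, with 2-MiCit first (SD, n = 4 each). The 4-line mean of VSNL1 was -0.04 (adjusted p = 0.661), although its effect differed among lines (adjusted p = 2.58e-06). KLF6, PGM2L1 and CASTOR2 rose without HCT116 by 0.31, 0.28 and 0.29, with effects of -0.05, -0.00 and -0.00 in HCT116, where they hardly moved. The KLF6 groups overlapped in every line, and its highest DLD1 control, 150 CPM, was the library that stood apart. CASTOR2 has a near-identical neighbour copy, so its counts are uncertain.

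Gene lists were read by how many members were called in the 4-line mean, against 9.79% higher and 7.97% lower over all tested genes, and by how many were called without HCT116. There the shares of all tested genes were 1.61% higher and 1.12% lower. Leaving out the 2 libraries that stood apart raised the shares of all tested genes to 11.4% higher and 12.3% lower in the mean. Without HCT116 they then came to 2.05% and 2.13%. The lists were written with earlier results of these data known, so their counts are descriptions, and no list was tested. Over all tested genes the median effect came to 0.04 in HCT116, with 0.00 in DLD1, 0.01 in LoVo and 0.00 in SW948. Of 30 tested FOXO targets and growth arrest genes, which lie downstream of transcription factors that growth signalling holds out of the nucleus, 24 rose and 0 fell. Without HCT116, 17 rose and 0 fell, and 15 had a positive effect in every line. The list median was 0.57 in HCT116, 0.35 in DLD1, 0.32 in LoVo and 0.02 in SW948. Beside KLHL24 and PDCD4, CCNG2, an atypical cyclin, rose by 0.62 ± 0.06 (adjusted p = 8.17e-08) and YPEL5 by 0.51 ± 0.05 (adjusted p = 7.17e-08). In HT29, SKCO1 and SW1417, 18 members of this list rose and 0 fell.

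The list of G1 phase genes had more members lower than higher in the mean. Of 26 listed G1 cyclins, CDKs and E2F control genes, 25 were tested. Of these, 3 rose and 7 fell in the 4-line mean, with a median log2 fold change of -0.04. Over all tested genes 9.79% were called higher and 7.97% lower, so the 3 higher members lie near the share of all genes. Without HCT116, 0 rose and 2 fell (1 fell when the 2 libraries that stood apart were also left out). CDKN1A, the cyclin-dependent kinase inhibitor p21, had log2 fold changes of 0.82 in HCT116, 0.45 in DLD1, 0.04 in LoVo and -0.26 in SW948. RBL2, a pocket protein that represses E2F targets, rose by 0.35 ± 0.06 (adjusted p = 1.03e-04), with log2 fold changes of 0.92 in HCT116 and 0.16 in the mean of the others (adjusted p = 0.261). MYBL2, a transcription factor of the cell cycle, fell by 0.22 ± 0.02 on the log2 scale (adjusted p = 3.02e-07), with effects of -0.50 in HCT116, -0.22 in DLD1, -0.15 in LoVo and -0.01 in SW948.

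Of 23 ATF4 targets, the genes of the integrated stress response to amino acid shortage, 13 rose and 0 fell. Without HCT116 the count was 4, and the list medians were 0.48 in HCT116, 0.26 in DLD1, -0.13 in LoVo and 0.06 in SW948. In HT29, SKCO1 and SW1417, 1 member rose and 4 fell. Plasma membrane amino acid transporters had 5 of 16 higher, and 8 without the 2 libraries that stood apart, with SLC1A4, a neutral amino acid carrier, at 1.61 in HCT116, 0.65 in DLD1, 0.24 in LoVo and -0.11 in SW948. SLC38A2, a carrier of small neutral amino acids, moved most in DLD1 (1.02). Of 25 immediate early and AP-1 genes, 10 rose and 6 rose without HCT116. In this list DLD1 had the higher median, 0.31 against 0.16 in HCT116, and JUN, an AP-1 subunit, had 0.66 in HCT116, 0.84 in DLD1, 0.55 in LoVo and -0.00 in SW948.

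Of 17 circadian clock genes 6 rose, led by NR1D1, the nuclear receptor REV-ERB alpha, with 1.16 in DLD1 and 0.33 in HCT116. Of 23 NRF2 targets 8 rose, and 1 without HCT116. ABCC3, an organic anion export pump in that list, rose by 0.74 ± 0.06 (adjusted p = 5.33e-10), with 1.97 in HCT116, 0.52 in DLD1, 0.52 in LoVo and -0.06 in SW948. SLC7A11, the cystine importer, had 1.08 in HCT116 and 0.86 in DLD1 but -0.20 in SW948. Of 26 mesenchymal, TGF-beta and YAP targets 7 rose and 1 fell (6 and 2 without the 2 libraries), and 0 were called without HCT116 (1 rose without the 2 libraries). THBS1, a matrix glycoprotein, had 1.40 in HCT116 and 0.02 in the mean of the others.

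**Figure D5:**
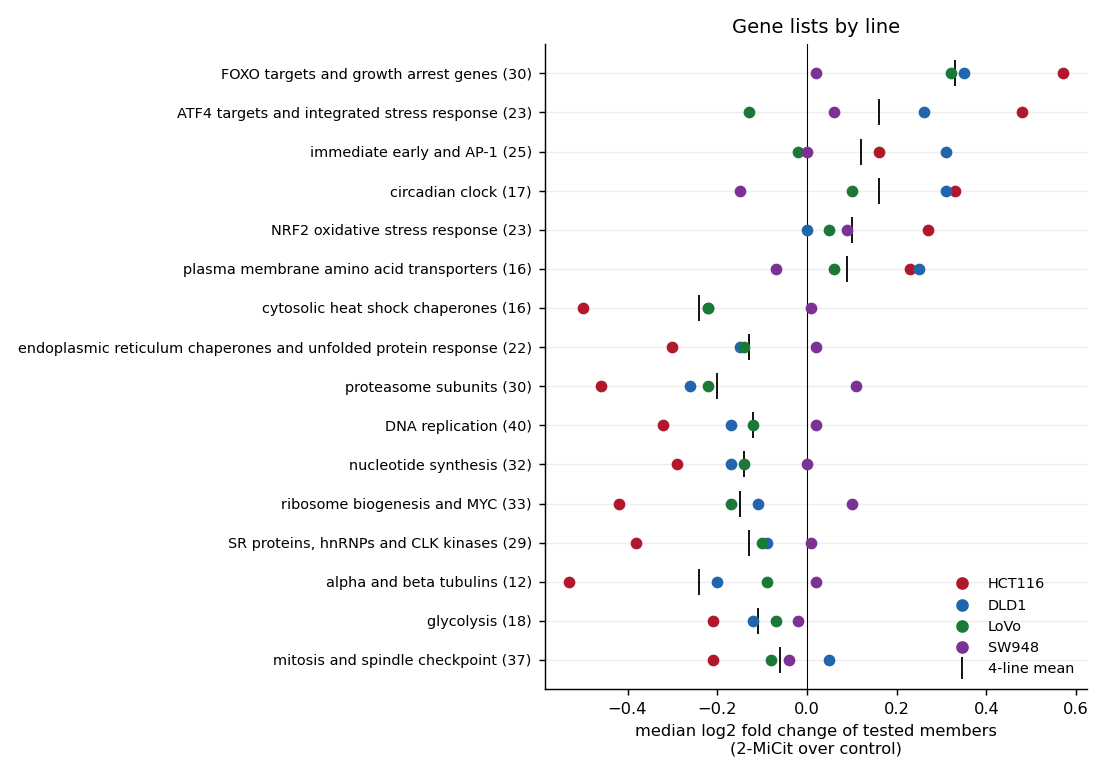
Median log2 fold change (2-MiCit over control, x axis) of the tested members of 16 gene lists, by line, with a black bar for the median of the 4-line mean and the number of tested genes in brackets. Among the lists drawn, HCT116 is farthest from 0 in all but the immediate early and amino acid transporter lists, where DLD1 is, and the SW948 medians stay between -0.15 and 0.11. Lists not drawn can differ. Nuclear respiratory chain genes had -0.17 in HCT116, -0.41 in DLD1 and 0.27 in SW948, and cytosolic ribosomal proteins -0.18, -0.36 and 0.32. Without the 2 libraries that stood apart, DLD1 and SW948 had -0.18 and 0.09 for the first list and -0.14 and 0.09 for the other.

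Of 16 cytosolic heat shock chaperones 15 fell and 0 rose in the 4-line mean, 7 fell without HCT116 (11 when the 2 libraries that stood apart were also left out) and 7 were negative in every line. The list medians were -0.50 in HCT116, -0.22 in DLD1, -0.22 in LoVo and 0.01 in SW948. HSP90AB1, the constitutive cytosolic HSP90, fell by 0.33 ± 0.03 on the log2 scale (adjusted p = 9.39e-09) and HSPH1, a nucleotide exchange factor of HSP70, by 0.30 ± 0.03, with effects from -0.11 in SW948 to -0.49 in HCT116. Of 30 proteasome subunits 23 fell, and 6 without HCT116 (11 when the 2 libraries were also left out), with a list median of 0.11 in SW948. PSMB2, a subunit of the core particle, fell by 0.27 ± 0.03 on the log2 scale. Of 22 endoplasmic reticulum chaperones and unfolded protein response genes 10 fell, and 6 without HCT116, with a median of 0.02 in SW948. HSPA5, the chaperone BiP, had -0.62 in HCT116, -0.40 in DLD1, -0.27 in LoVo and 0.01 in SW948.

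Of 40 DNA replication genes 27 fell and 0 rose in the 4-line mean, and 7 fell without HCT116, with a list median of 0.02 in SW948. MCM10, an initiation factor, fell by 0.24 ± 0.03 on the log2 scale and had -0.15 in the mean without HCT116 (adjusted p = 0.0248). Of 32 nucleotide synthesis genes 19 fell, and 4 without HCT116; RRM2, a subunit of ribonucleotide reductase, fell by 0.26 ± 0.03 on the log2 scale. Of 33 ribosome biogenesis and MYC genes 22 fell, and 0 without HCT116 (4 when the 2 libraries that stood apart were also left out), with a list median of 0.10 in SW948. NOP56, of the small nucleolar RNA machinery, had -0.65 in HCT116, -0.32 in DLD1, -0.24 in LoVo and 0.15 in SW948. Of 29 SR proteins, hnRNPs and CLK kinases 20 fell, and 3 without HCT116 (5 when the 2 libraries were also left out). Of 12 tubulins 8 fell, and 0 without HCT116 (2 when the 2 libraries were also left out), and their near-identical copies make single members uncertain. Of 31 cytosolic ribosomal proteins 0 were called in either direction, and 1 fell without the 2 libraries.

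Over all tested genes 9.79% were called higher and 7.97% lower in the mean, and 11.4% and 12.3% without the 2 libraries that stood apart. In HT29, SKCO1 and SW1417 these shares were 9.31% and 11.6%. Of 37 mitosis and spindle checkpoint genes 10 fell, 19 did without the 2 libraries, and 33 did in HT29, SKCO1 and SW1417. Of 18 glycolysis genes 8 fell and 1 rose, the latter near the share of all genes. GAPDH, a glycolytic dehydrogenase, had -0.33 in HCT116, -0.24 in DLD1, -0.11 in LoVo and -0.02 in SW948. Of 28 mitochondrial ribosomal proteins 6 fell, and 17 without the 2 libraries. Of 44 nuclear respiratory chain genes 5 fell, near the share of all genes, and 12 without the 2 libraries. Of 22 genes of the tricarboxylic acid cycle and citrate handling 2 rose and 3 fell, with 6 lower without the 2 libraries. The 2 higher members lie near the share of all genes. OGDH, a subunit of the oxoglutarate dehydrogenase complex, had a mean of 0.14, and FH, fumarate hydratase, had -0.12. Of 15 genes of propionate and methylmalonate metabolism 4 rose and 2 fell; PCCA, a subunit of propionyl-CoA carboxylase, rose by 0.22 ± 0.04 (adjusted p = 1.00e-04), with 0.25 in HCT116, 0.17 in DLD1, 0.30 in LoVo and 0.18 in SW948. Of 26 cholesterol genes 3 rose, near the share of all genes, and 4 fell, with 9 lower without the 2 libraries. In HT29, SKCO1 and SW1417, 16 rose and 0 fell.

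HT29, SKCO1 and SW1417, sequenced in the other deposited table and sharing no library with the mean above, were used as a separate measurement of the same contrast. Their mean called 1498 genes higher (9.31% of 16090) and 1869 lower (11.6%). Of the genes called higher in the 4-line mean, 76.0% had the same sign there, against 50.3% of all genes tested in both, and 30.6% were also called higher, against 9.94%. Of those called lower, 90.2% had the same sign, against 49.7% of all, and 666 of 1256 were also called lower, against 12.5%. Opposite calls were made for 69 of the higher and 11 of the lower genes. Among higher genes with one sign in all 4 lines, 82.0% had that sign in the other mean and 34.4% were also called. Among lower genes with one sign these shares were 88.5% and 51.7%. One sign in all 7 lines was found for 240 genes called higher and 242 called lower.

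Single genes differed in how well they carried over. KLHL24 rose by 0.41 (adjusted p = 2.21e-08), PINK1 by 0.31 (adjusted p = 2.88e-06) and PNRC1 by 0.17 (adjusted p = 0.00456) in the mean of HT29, SKCO1 and SW1417. CDC20 fell by 0.27 on the log2 scale (adjusted p = 7.19e-09) and PAICS by 0.12 (adjusted p = 0.00773). ATF3 had 0.09 there (adjusted p = 0.498), HSPA8 -0.01 (adjusted p = 0.892) and RAB3B -0.01 (adjusted p = 1.00). ASNS, led by HCT116 in the 4-line mean, fell by 0.15 (adjusted p = 0.00269).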

How the data were processed

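RNA-seq counts per gene were deposited by the authors as whole numbers for 32 libraries of HCT116, DLD1, LoVo and SW948 and, in another table, for 24 of HT29, SKCO1 and SW1417. Per the labels' protocols, total RNA was column-purified and libraries were made with a stranded mRNA kit. The submitters' processing notes name Salmon 1.5.0, Trimmomatic 0.39, bcl2fastq 2.20.0 and DESeq2, and the genome build GRCh38.p13. Salmon shares reads among near-identical transcripts. Columns were matched to samples by name, and 0 columns stayed unmatched.

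Low counts were removed by filterByExpr, TMM factors set the scaling, and the rest was fitted with edgeR 4.0.16 (robust quasi-likelihood, two-sided) in R 4.3.3, with 8 group means in one fit. The 4-line mean, the means leaving out a line, each line against the others and the 4 line effects (3 degrees of freedom within the joint test) were contrasts of that fit, and a call needed an adjusted p (Benjamini-Hochberg) under 0.05. The other table was fitted by itself. Symbols came from a list of gene names and, where it held none, from GENCODE release 29, which also gave the gene positions. Identifiers that shared a symbol were left unnamed. The 1556 without a symbol held 3.35% to 4.1% of counts. CPM are TMM-scaled. The script was tested on simulated data.

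Named genes had at least 5 CPM and were the largest one-sign effects, the largest smallest-line effects and the smallest p for HCT116 against the others. Also named were genes called without HCT116 that were not called in the mean or had the opposite sign in HCT116. Up to 4 members per list were added. Those shown by library were picked among them after their values were seen. The members and lists were chosen with earlier results of these data known. Alternatives were other size factors, filters, DESeq2 1.42.0, limma 3.58.1 voom, replicate blocks, length correction, each line alone, lines as replicates and each library left out. Leaving out both libraries that stand apart was chosen after seeing the data. One gene and one gene list that these rules named are not reported here.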

Additional observations from a re-analysis of the deposited data

Results flagged for a closer look

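Within groups of 4 libraries, 8 of 144 groups examined had a library farther from the rest than Dixon's 95% critical value, where chance flags about 1 in 20. The mean correlation with the own group was 0.9520 for DLD1 control replicate 1 and 0.9606 for SW948 2-MiCit replicate 2. GDF15 was at 468 CPM in DLD1 control replicate 1. VSNL1 was at 46.5 CPM in LoVo 2-MiCit replicate 2 and at 4.68 CPM in HCT116 control replicate 4. KCNH3 was at 41.2 CPM in HCT116 control replicate 4, at 0.0689 CPM in DLD1 control replicate 2 and at 0 in SW948 control replicate 3. The other DLD1 controls were at 0 and the other SW948 controls at 0.0605 to 0.0680 CPM. The KCNH3 flags in DLD1 and SW948 therefore rest on very few reads.

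The effect of 2-MiCit differed among the 4 lines for 10 of the genes shown by library, by the joint edgeR test. The adjusted p was 4.80e-13 for ASNS, 5.75e-11 for PSAT1, 1.02e-08 for ATF3, 2.93e-08 for TRA2B, 9.49e-07 for HSPA8, 2.58e-06 for VSNL1 and 1.44e-05 for CDC20. It was 1.55e-04 for KLHL24, 3.98e-04 for GDF15 and 0.00195 for SGK1. Over all genes, a line differed from the mean of the other 3 for 1987 genes in HCT116, 327 in DLD1, 55 in LoVo and 2659 in SW948, and the effects differed among lines for 2837 genes.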

How the results depend on the processing

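The 4-line mean, its one-sign genes and the excess of HCT116 stayed within 1.5 times their counts with other size factors, either filter and the length correction. DESeq2 called 392 higher and 333 lower genes without HCT116 and 4396 with differing lines. Voom with library weights called 2383 higher and 2107 lower in the mean, 981 and 754 of them with one sign, 656 and 604 without HCT116, 2180 and 1793 for HCT116 against the others, and 4739 with differing lines. Without both libraries that stand apart, the lower counts were 1957 in the mean, 781 with one sign, 339 without HCT116 and 1564 for HCT116 against the others. With the lines as replicates limma called 0 higher and 0 lower (496 and 193 at an unadjusted p below 0.05). Fitted without HCT116, the other 24 libraries gave 93 lower genes. Alone, DLD1 had 20 higher and 0 lower, LoVo 218 higher and SW948 0 higher. The causes were not tested.

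Same-numbered libraries did not all deviate together (16 pairs, correlations from -0.37 to 0.29, 5 over 0.1, 7 best with their own number), so the numbers were not taken as pairs. In HCT116 3 of the 4 pairs were over 0.1, each best with its own number, and the other was at 0.02. A replicate block within each line gave 1372 higher and 1030 lower genes in the mean (2319 shared with the fit without it), 86 lower without HCT116 and 1637 with differing lines; one block across lines gave 1510 and 1190.

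With each library left out in turn, the mean had 1275 to 1703 higher and 1076 to 1826 lower genes, one-sign genes 440 to 677 and 339 to 644, the mean without HCT116 135 to 289 and 100 to 355, HCT116 against the others 972 to 1301 and 633 to 1355, differing lines 1992 to 3679, and the HCT116 share 48.7% to 55.0%. One-sign lower genes, 411 in the full fit, were 636 without DLD1 control replicate 1 and 644 without SW948 2-MiCit replicate 2, and HCT116 against the others had 1355 lower without the first of these. Higher genes without HCT116, 255 in the full fit, were 164 and 166 without DLD1 2-MiCit replicate 1 or control replicate 2, 135 and 144 without LoVo 2-MiCit replicate 1 or 2, and 165 and 139 without LoVo control replicate 2 or 3. Lower genes without HCT116, 177 in the full fit, were 100 and 273 without DLD1 2-MiCit replicate 1 or 3, 355 without SW948 2-MiCit replicate 2 and 109 without SW948 control replicate 3. Of 185 named genes 171 kept their call whichever library was left out, and RPLP0 ran from -0.09 to 0.01, the highest without DLD1 control replicate 1 (-0.03 with it). Counts below 1 CPM limit what can be read from single lines. They included those of RAB3B in SW948, KCNH3 in DLD1, LoVo and SW948, and AKR1C1 and AKR1C3 in HCT116 and DLD1. DHRS2 in DLD1, MUC20 in HCT116 and LoVo, and NINL in LoVo had them as well.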
